A study of Mus musculus with 50 samples.

Results

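Cells write, erase and read the methyl group on cytosine with a small set of enzymes and binding proteins, and 9 of their genes were followed here in mouse frontal cortex. They are the methyltransferases Dnmt1, Dnmt3a and Dnmt3b, the Dnmt1 recruiter Uhrf1, the dioxygenases Tet1, Tet2 and Tet3, and the methyl-CpG binding proteins Mbd1 and Mbd2. The genes were chosen by name for their role, and all 9 were among the 16330 protein-coding genes with enough counts to test, of 55487 genes in the files.

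Methylation sits mostly on CpG, a cytosine followed by a guanine, and is copied at each round of replication: Uhrf1 binds CpG methylated on a single strand and brings Dnmt1, which methylates the other strand. Dnmt3a and Dnmt3b add the mark where there was none, and in brain Dnmt3a also methylates cytosines outside CpG during early postnatal life. Tet enzymes oxidise 5-methylcytosine to 5-hydroxymethylcytosine, which is abundant in neurons, and on to forms that base excision repair removes. Mbd1 and Mbd2 bind methylated CpG, and Mbd2 brings the NuRD deacetylase complex with it.

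Wild-type mice (WT) were compared with mice that carry an inactivated copy of Setd1a beside a normal one (Setd1a+/-, Het in what follows). Setd1a encodes a histone H3 lysine 4 methyltransferase, and the inactive copy is the tm1d allele of a knockout-first design, transmitted by heterozygous fathers. GEO's labels give the strain as C57BL/6NTac, while the paper's methods describe male mice on a mixed background of that strain and C57BL/6J. Frontal cortex was taken at embryonic stages E14 and E18 and at postnatal days 7, 35 and 70 (P7, P35 and P70), with 5 mice of each genotype at each age, giving 10 groups and 50 libraries. These stages and the tissue are as labelled; the methods time the embryos slightly later and speak of frontal brain regions for them. Poly-A RNA was sequenced in 1 batch, and the counts over all genes came to between 35507165 and 43907318 per library.

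A few libraries stood apart. Xist, which is transcribed from the inactive X chromosome of females, had 60159 counts in WT replicate 5 at E14 and 55644 in WT replicate 2 at E18, against at most 27 in the others, and 4 Y-linked genes together had 0 and 11 counts in those libraries against at least 4711. WT replicate 2 at P7 held RNA of tissue outside the cortex: its summed level of the choroid plexus markers Ttr, Folr1 and Kl was 608 CPM (counts scaled to each library's total after trimmed-mean adjustment), against 1.64, 1.19, 1.89 and 1.63 in the other WT libraries of that age, with Ttr the most abundant. The hindbrain markers Hoxa2, Hoxb3 and En1 summed to 16.8 CPM in it and to at most 0.366 CPM in the other 9 libraries at P7. The cortex markers Emx1 and Tbr1 summed to 66.1 CPM there, against 152 to 179 in those 9. Its 20 proliferation genes reached 684 CPM, against 249 to 304. Choroid plexus markers were also present in libraries of both genotypes at E14, from 0.382 to 376 CPM in WT and 0.860 to 443 CPM in Het, at 34.1 CPM in Het replicate 3 at P70, and at 227 and 182 CPM in WT replicates 3 and 4 at E18. The Uhrf1 differences and the calls that rest on WT replicate 2 at P7 are given with and without it. WT means, SDs and sums at P7 include that library unless stated.

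Setd1a itself (ENSMUSG00000042308, GRCm38 chromosome 7, 127776670 to 127800122, plus strand) was read first, in every library. At E14 it measured 129, 129.8, 136, 119 and 119 CPM in WT and 150.2, 136, 128, 139.7 and 130.1 CPM in Het replicates 1 to 5. At E18 the values were 93.4, 95.6, 94.6, 85.4 and 100.02 CPM in WT and 104, 117, 96.9, 104 and 113 CPM in Het. At P7 they were 72.5, 76.2, 70.2, 70.7 and 71.3 CPM in WT and 81.9, 78.3, 76.4, 83.5 and 83.7 CPM in Het, where all 5 Het libraries lay above all 5 WT libraries, a separation in either direction seen for 2.23% of all tested genes at that age. By P35 the levels were 91.7, 82.4, 81.7, 84.6 and 85.2 CPM in WT and 91.9, 88.2, 88.3, 89.4 and 91.6 CPM in Het. At P70 they were 84.4, 88.7, 84.8, 81.6 and 92.0 CPM in WT and 81.9, 86.0, 81.5, 76.6 and 97.8 CPM in Het, again overlapping. Over all ages Setd1a was higher in Het by 0.10 ± 0.03 on the log2 scale (± SE, adjusted p 0.00679 by edgeR's quasi-likelihood test, adjusted over all genes after Benjamini and Hochberg and called under 0.05), and it was called at none of the ages taken alone. This gene-level count also covers exons outside the deletion, so it does not check the genotype labels, and 51.8% of its exon bases are shared with the overlapping gene Gm49388, whose fragments were counted for both.

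Across development most of the 9 genes fell. From E14 to E18 in WT cortex, 8 of the 9 fell and 0 rose, against 65.9% of all tested genes called in either direction, and the members' median log2 fold change was −0.43 against −0.01 over all genes. From E18 to P7, 7 fell and Dnmt3a rose, with 67.3% of all genes called and medians of −0.36 and 0.00. Between P7 and P35, 6 fell and Mbd2 rose, with 67.0% of all genes called and medians of −0.73 and −0.01. After P35 few genes were called: Tet1 and Dnmt3a fell further by P70 and the other 7 were not called, with 1.06% of all genes called, a background of 173 genes that ranged from 46 to 277 with single libraries left out. The members called in that step ranged from 1 to 2 in the same way. Het mice, which are separate animals, gave 7 of 9 lower in the first step (64.5% of all genes called), 7 lower and Dnmt3a higher in the second (67.8%), 6 lower and Mbd2 higher from P7 to P35 (67.8%), and Tet1 and Dnmt3a lower in the last (2.98%). In the first 3 steps the called members went mostly downward. Over all tested genes in WT, 5190 rose and 5567 fell from E14 to E18, 5534 and 5455 from E18 to P7, and 5331 and 5608 from P7 to P35. Neighbouring steps share the libraries of the age between them. In whole tissue, fewer cells of a type and less RNA per cell cannot be told apart.

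**Figure D1:**
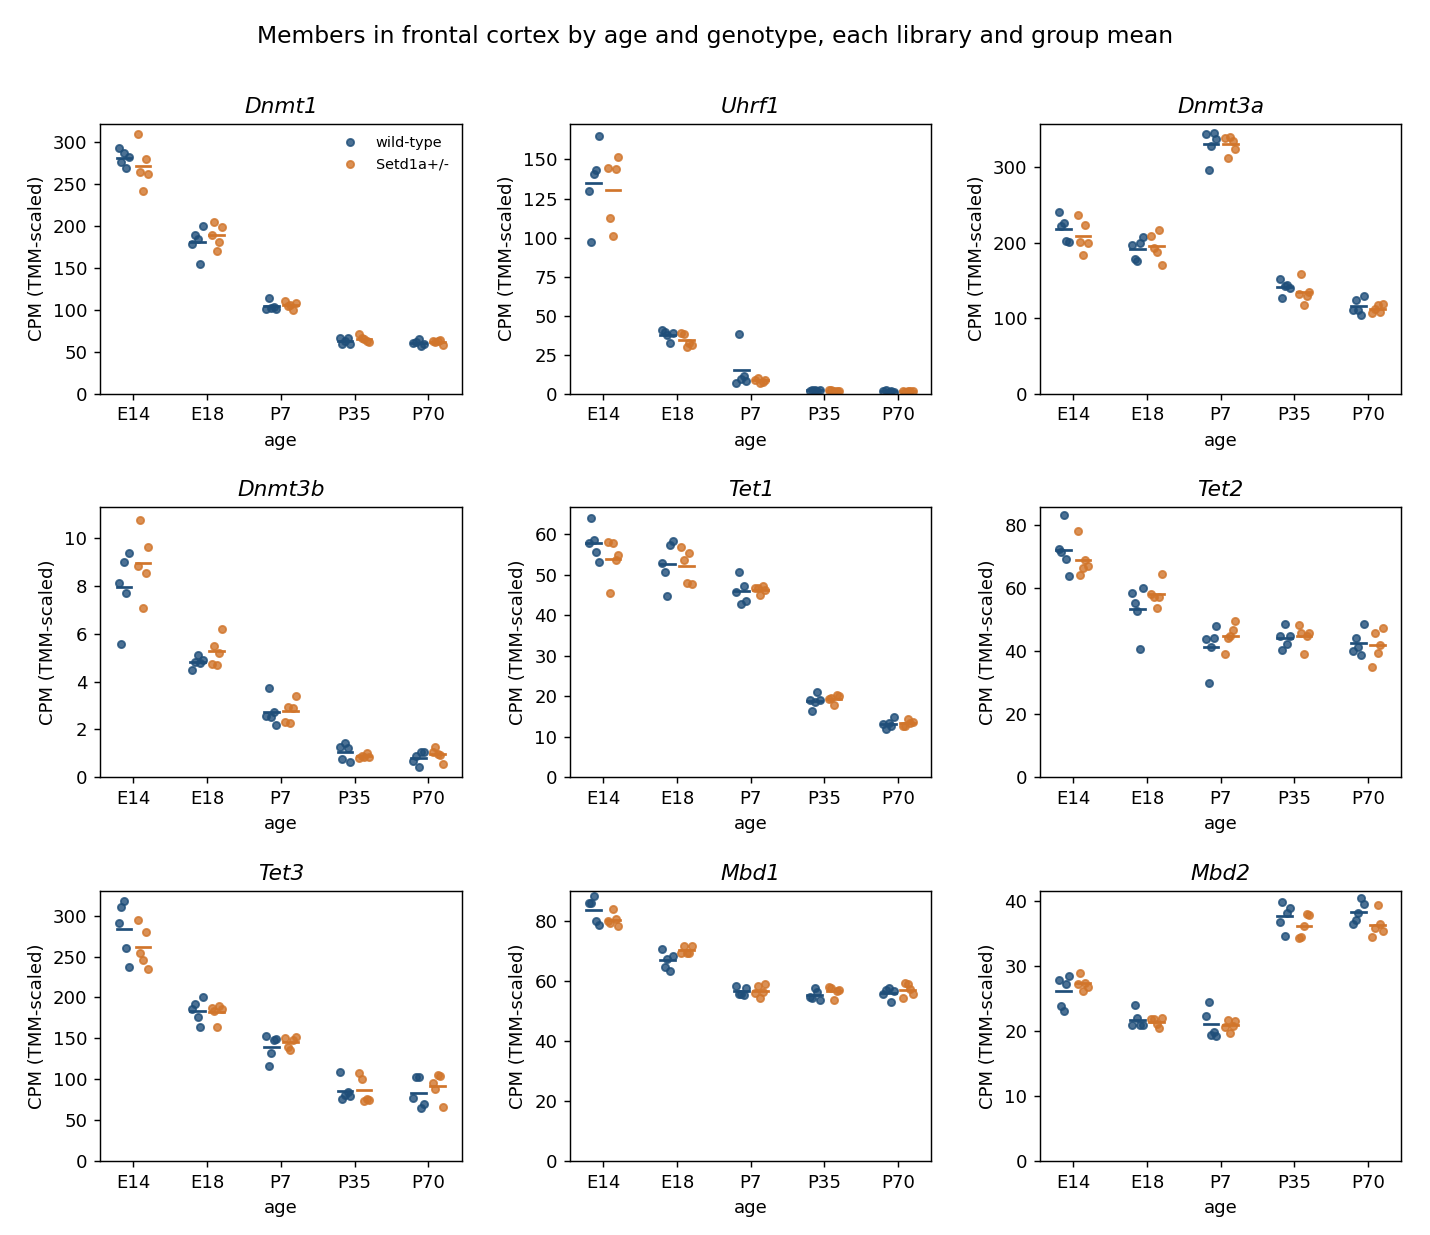
Level of each of the 9 genes in all 50 libraries, in CPM, at E14, E18, P7, P35 and P70, with WT and Het side by side and the mean of each group of 5. Most panels descend with age, Dnmt3a peaks at P7, Mbd2 steps up between P7 and P35, and WT replicate 2 at P7 is the highest P7 library in the Uhrf1 panel.

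Dnmt1, the maintenance methyltransferase (ENSMUSG00000004099, GRCm38 chromosome 9, 20907209 to 20959888, minus strand), declined steadily until P35. In WT replicates 1 to 5 it measured 292, 276, 287, 269 and 281 CPM at E14 and 179, 189, 184, 154 and 199.96 CPM at E18. It then stood at 101, 114, 101.8, 103 and 101 CPM at P7 and 66.3, 59.7, 62.6, 65.9 and 59.2 CPM at P35. No library of an older age reached the range of a younger one up to P35, while P35 overlapped P70, where the values were 60.1, 62.1, 65.6, 57.0 and 59.5 CPM. The gene fell by 0.63 ± 0.06, 0.80 ± 0.06 and 0.73 ± 0.06 on the log2 scale in the first 3 steps in WT (adjusted p 6.99e-13, 3.45e-16 and 4.18e-15 by edgeR), with −0.04 ± 0.06 from P35 to P70 not called (adjusted p 0.871). Even so, adult cortex kept 60.9 ± 3.23 CPM (SD, n = 5), so that E14 exceeded P70 by only 4.62-fold.

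Uhrf1 (ENSMUSG00000001228, chromosome 17, 56303321 to 56323486, plus strand) lost far more than the enzyme it recruits. It measured 129.7, 97.0, 141, 143 and 165 CPM in the WT libraries at E14 and 40.95, 39.7, 37.4, 32.5 and 38.6 CPM at E18. At P7 the values were 7.10, 38.3, 9.37, 11.1 and 8.34 CPM in WT and 8.80, 10.3, 7.08, 7.50 and 8.61 CPM in Het. WT replicate 2, the library with choroid plexus and hindbrain markers, was the only high one of these 10. By P35 the gene was at 1.72, 2.38, 2.57, 1.82 and 2.63 CPM and by P70 at 1.69, 2.18, 1.01, 1.47 and 1.14 CPM, overlapping ranges close to the floor. Its WT mean at E14, 135 ± 24.8 CPM, was 90.3 times that at P70, and in Het the ratio was 83.3. Uhrf1 fell by 1.84 ± 0.24, 1.34 ± 0.24 and 2.74 ± 0.29 in the first 3 WT steps (adjusted p 6.62e-09, 4.35e-06 and 2.02e-11 by edgeR), and −0.57 ± 0.35 from P35 to P70 was not called (adjusted p 0.583). Without WT replicate 2 at P7 the steps on either side of P7 were −2.08 ± 0.15 and −2.01 ± 0.17, close to the −2.01 ± 0.25 and −2.08 ± 0.30 of Het cortex.

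Uhrf1 declined together with genes of S phase and mitosis. Of a list of 20 proliferation genes, among them Mki67, Top2a, Pcna and the Mcm helicase subunits, 20 fell from E14 to E18 in WT, 20 fell from E18 to P7 and 19 fell from P7 to P35, and in Het the counts were 20, 20 and 17, with Gins2 rising from P7 to P35. The share of all genes called in these WT steps was 65.9%, 67.3% and 67.0%. The medians of the list were −1.55, −1.20 and −1.79, and its summed level was 2287 ± 369 CPM (E14), 805 ± 94.8 (E18), 350.2 ± 188 (P7), 153 ± 4.89 (P35) and 149.5 ± 6.22 (P70). Top2a was the most abundant of them at E14 and Pcna at P70. Without WT replicate 2 at P7, 20 fell from E18 to P7, and 19 fell and 1 rose from P7 to P35. Over the 50 libraries the genes with the highest Pearson correlation with Uhrf1 were Pclaf (r = 0.9965), Cdc20 (0.9955) and Cdca2 (0.9955). The part of cell division in the fall of Uhrf1 was not tested.

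**Figure D2:**
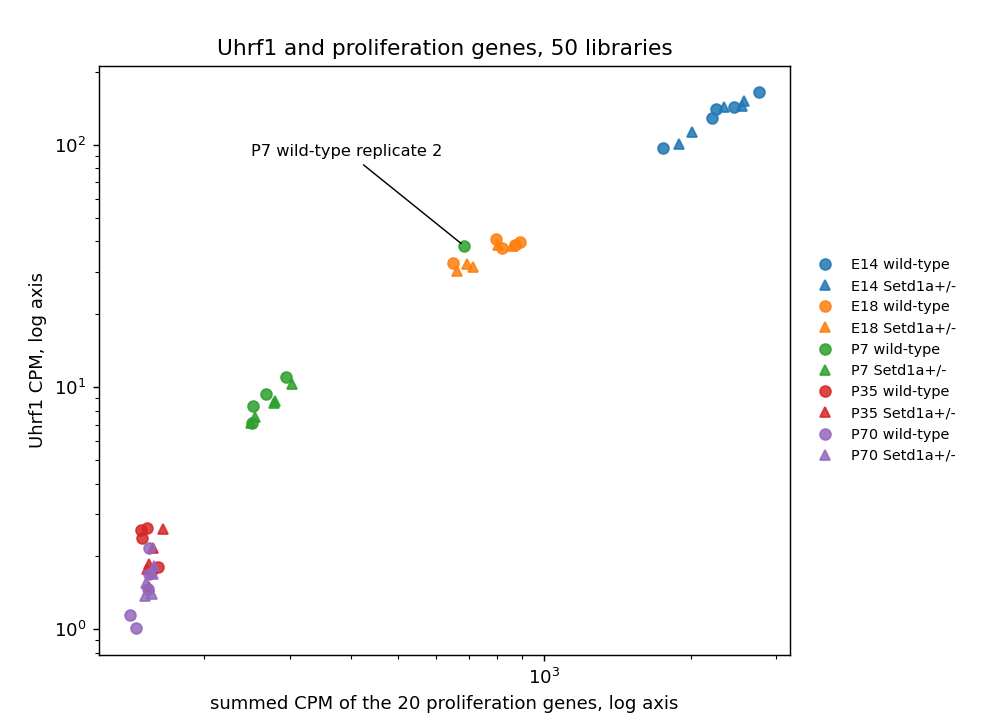
Uhrf1 level against the summed level of the 20 proliferation genes in each of the 50 libraries, both in CPM on log axes, coloured by age. Libraries of an age lie together from E14 at the top to P35 and P70 at the bottom, except WT replicate 2 at P7, which sits near the E18 libraries at 38.3 CPM of Uhrf1 and 684 CPM of the list.

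The promoters of Dnmt1 and Uhrf1 are shown because the maintenance pair fell together and E2F, a factor of the G1 to S transition, binds short words of the form printed here. RefSeq promoters (GRCm38.p6, 250 bases before to 50 bases after a start) were found for 7 of the 9 genes, and the words TTTCCCGC, TTTCGCGC, TTTGCCGC and TTTGGCGC were searched on both strands. A word occurred in 2.26% of 32851 promoters, and among those of the 7 genes only in the following promoters of Dnmt1 and Uhrf1, where capitals mark it. In the Dnmt1 promoter it lies at −219 (TTTCGCGC on the opposite strand) and at 34 (TTTGGCGC) from the start, and in the Uhrf1 promoter at −185 (TTTCGCGC).
Dnmt1, chr9:20952574-20952873, minus strand: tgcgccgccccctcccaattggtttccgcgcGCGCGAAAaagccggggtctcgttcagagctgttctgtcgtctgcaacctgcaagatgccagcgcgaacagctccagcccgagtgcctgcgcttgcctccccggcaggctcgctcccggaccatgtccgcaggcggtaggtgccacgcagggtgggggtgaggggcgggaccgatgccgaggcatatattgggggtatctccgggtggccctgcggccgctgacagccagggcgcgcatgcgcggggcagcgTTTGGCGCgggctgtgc
Uhrf1, chr17:56304063-56304362, plus strand: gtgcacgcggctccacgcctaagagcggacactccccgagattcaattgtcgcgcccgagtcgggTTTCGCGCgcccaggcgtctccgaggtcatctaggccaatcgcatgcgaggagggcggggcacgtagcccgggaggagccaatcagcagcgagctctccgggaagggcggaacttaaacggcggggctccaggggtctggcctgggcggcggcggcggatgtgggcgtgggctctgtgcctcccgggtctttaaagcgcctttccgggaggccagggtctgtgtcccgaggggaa
Each of these promoters holds 33 CpG, more than 91.4% of all promoters, whose median is 7. All 4 words contain CpG, and the share of promoters equally rich in CpG that hold a word was not computed. A match describes the letters and does not show binding, and a part of E2F in the fall of either gene was not tested. The other annotated promoters of Dnmt1 and Uhrf1, and those of Dnmt3a, Dnmt3b, Tet1, Tet2 and Tet3, held none of the 4 words in this window, and the Tet2 promoter was the richest of them in CpG, with 57.

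Dnmt3a (ENSMUSG00000020661, chromosome 12, 3806007 to 3914443, plus strand), the methyltransferase that sets new methylation in postnatal neurons, had a different course, with a peak in the first postnatal week. In WT it measured 198, 178, 176, 199.8 and 208 CPM at E18 and 344, 296, 329, 346 and 338 CPM at P7. At P35 it was back at 151, 126, 143, 144 and 141 CPM, and at P70 at 110.4, 124, 112, 104 and 129 CPM. Every P7 library lay above every library of the other ages, and in Het the P7 values were 339, 313, 341, 336 and 324 CPM. The gene rose by 0.79 ± 0.07 from E18 to P7 and fell by 1.23 ± 0.07 from P7 to P35 in WT (adjusted p 3.97e-13 and 1.64e-19 by edgeR), and rose by 0.76 ± 0.07 and fell by 1.30 ± 0.07 in Het. The mean at P7, 331 ± 20.5 CPM, was 2.86 times the lowest, 116 ± 10.2 at P70.

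At either side of that peak Dnmt3a moved little. From P35 to P70 it fell by 0.28 ± 0.07 in WT and 0.25 ± 0.07 in Het (adjusted p 0.0346 and 0.0392 by edgeR), with overlapping ranges: 132.1, 158.1, 117, 129 and 135 CPM at P35 and 107, 113, 118, 108 and 118 CPM at P70 in Het. Both calls lay near the threshold. The WT call was lost without any of WT replicates 1, 3, 4 and 5 at P35 or 1, 2, 3 and 4 at P70 (differences of −0.25 to −0.31, adjusted p 0.0562 to 0.121), and the Het call without any of Het replicates 1, 2, 4 and 5 at P35 or 1, 2, 3 and 4 at P70 (differences of −0.19 to −0.27, adjusted p 0.0566 to 0.194), with adjusted p of 0.0137 to 0.121 over all 59 alternatives in WT and 0.0183 to 0.194 over all 59 alternatives in Het. From E14 to E18, Dnmt3a fell by 0.19 ± 0.07 in WT (adjusted p 0.0190), a call lost without WT replicate 1 at E14 or WT replicate 2 or 3 at E18 (differences of −0.15 to −0.16, adjusted p 0.0556 to 0.0734; 0.00940 to 0.0846 over all 59 alternatives), and in Het −0.10 ± 0.07 was not called. The antisense gene Dnmt3aos shares 0.799% of the Dnmt3a exon bases, and counting took no account of strand.

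Dnmt3b (ENSMUSG00000027478, chromosome 2, 153649450 to 153687730, plus strand), the other de novo enzyme, was the scarcest of the 9 per length at every age in WT. Its WT mean was 7.96 ± 1.48 CPM (E14), 4.82 ± 0.218 (E18), 2.74 ± 0.585 (P7), 1.05 ± 0.341 (P35) and 0.825 ± 0.272 (P70). It fell by 0.72 ± 0.18, 0.81 ± 0.18 and 1.38 ± 0.20 in the first 3 WT steps (adjusted p 4.03e-04, 1.24e-04 and 3.78e-08 by edgeR) and was not called from P35 to P70. Its E14 mean was 9.64 times its P70 mean, the widest range after Uhrf1. Dnmt3b had no counterpart to the P7 rise of Dnmt3a, and per length Dnmt3a exceeded it 8.73 ± 2.14-fold at E14, 38.5 ± 8.54-fold at P7, 44.9 ± 15.1-fold at P35 and 48.2 ± 20.3-fold at P70 in WT, so the ratio did not peak at P7.

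Among the Tet enzymes, Tet1 (ENSMUSG00000047146, chromosome 10, 62804570 to 62908996, minus strand) fell latest and longest. It measured 45.6, 50.5, 42.7, 47.3 and 43.6 CPM in WT at P7 and 19.1, 16.4, 18.6, 21.1 and 19.05 CPM at P35. At P70 the values were 13.1, 11.9, 13.3, 12.5 and 14.9 CPM. All 5 P35 libraries were below all P7 libraries, and all P70 libraries below all of P35. The same held in Het, with 19.4, 19.5, 17.8, 20.2 and 20.2 CPM at P35 and 12.5, 12.7, 14.5, 13.4 and 13.6 CPM at P70. Tet1 fell by 1.29 ± 0.07 from P7 to P35 and fell by 0.52 ± 0.07 from P35 to P70 in WT (adjusted p 1.77e-20 and 2.96e-05 by edgeR), and by 1.25 ± 0.07 and 0.54 ± 0.07 in Het (adjusted p 3.69e-20 and 7.46e-06). It was the member with the clearest change between P35 and P70, a step in which few genes moved.

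Earlier steps of Tet1 were small. From E14 to E18 the differences were −0.13 ± 0.07 in WT and −0.05 ± 0.07 in Het, not called (adjusted p 0.0824 and 0.560 by edgeR), although the WT step was called without WT replicate 5 at E14 or WT replicate 4 or 5 at E18 (0.0305 to 0.0459, with 0.0305 to 0.311 over all 59 alternatives). From E18 to P7 Tet1 fell by 0.20 ± 0.07 in WT and 0.17 ± 0.07 in Het (adjusted p 0.00972 and 0.0239), and the Het call was lost without Het replicate 1 or 4 at E18 (differences of −0.15 and −0.16, adjusted p 0.0695 and 0.0535), with DESeq2 in place of edgeR (0.0756) and with its size factors in edgeR (0.0768), with 0.00339 to 0.0768 over all 59 alternatives.

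Tet3 (ENSMUSG00000034832, chromosome 6, 83362373 to 83459084, minus strand), the most abundant of the 3 Tet genes per length, fell in WT from 283 ± 34.2 CPM (E14) to 184 ± 14.3 (E18), 139.6 ± 15.2 (P7) and 85.6 ± 13.5 (P35), with 83.3 ± 18.1 CPM at P70. The steps were −0.63 ± 0.12, −0.40 ± 0.12 and −0.70 ± 0.12 (adjusted p 1.48e-05, 0.00354 and 1.85e-06 by edgeR), and −0.04 ± 0.12 in the last was not called. Tet2 (ENSMUSG00000040943, chromosome 3, 133463679 to 133545139, minus strand) fell only before P7, from 71.9 ± 6.96 CPM at E14 through 53.3 ± 7.69 at E18 to 41.4 ± 6.85 at P7, and was not called afterwards, with 44.2 ± 3.05 at P35 and 42.5 ± 3.85 at P70. Its first 2 WT steps were −0.43 ± 0.09 and −0.36 ± 0.09 (adjusted p 1.02e-04 and 8.14e-04). In Het, Tet2 fell by 0.24 ± 0.09 from E14 to E18 (adjusted p 0.0215), a call lost without Het replicate 1 at E14 or Het replicate 3 at E18 (differences of −0.20 and −0.22, adjusted p 0.0806 and 0.0578, with 0.00907 to 0.0806 over all 59 alternatives). The antisense gene Gm42567 shares 0.255% of the exon bases of Tet2. Per length, the ratio of Tet3 to Tet1 in WT was 4.53 ± 0.345 at E14, 2.83 ± 0.412 at P7 and 5.94 ± 1.56 at P70.

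The readers went separate ways. Mbd2 (ENSMUSG00000024513, chromosome 18, 70568189 to 70626131, plus strand), the methyl-CpG binding protein of NuRD, measured 22.2, 24.4, 19.3, 19.9 and 19.2 CPM in WT at P7 and 36.7, 39.8, 34.6, 38.2 and 38.9 CPM at P35. The Het values were 20.6, 21.7, 19.6, 20.7 and 21.5 CPM at P7 and 34.3, 34.3, 36.1, 38.02 and 37.8 CPM at P35. In both genotypes all 5 libraries at P35 exceeded all 5 at P7. Mbd2 rose by 0.84 ± 0.06 in WT and 0.79 ± 0.06 in Het (adjusted p 3.99e-17 and 2.60e-16 by edgeR), after a fall of its own before birth: it fell by 0.26 ± 0.06 from E14 to E18 in WT and 0.35 ± 0.06 in Het. It was the single member whose level was highest in adult cortex, at 38.3 ± 1.66 CPM at P70 in WT against 26.1 ± 2.40 at E14. Mbd1 (ENSMUSG00000024561, chromosome 18, 74267605 to 74282732, plus strand), which also has CXXC domains, had the smallest ratio of E14 to P70 among the genes that fell: it fell by 0.33 ± 0.03 and 0.24 ± 0.03 in the first 2 WT steps (adjusted p 5.85e-11 and 5.25e-08), from 83.8 ± 4.26 CPM at E14 to 56.5 ± 1.33 at P7, and was 55.3 ± 1.66 at P35 and 56.0 ± 1.79 at P70. With library totals in place of trimmed-mean scaling, Mbd1 was called from P7 to P35 (−0.12, adjusted p 0.00355, with 0.00355 to 0.748 over all 59 alternatives), a scaling that moved the median of all genes in that step to −0.11.

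Compared per length, as CPM divided by the kilobases of exon (RPKM, mean ± SD over 5 libraries), the leading gene changed with age. At E14 in WT Dnmt1 led with 38.1 ± 1.25, overlapping Uhrf1 at 31.7 ± 5.83. Then came Tet3 at 16.98 ± 2.05, Dnmt3a at 13.1 ± 1.01 and Mbd1 at 12.4 ± 0.628, each overlapping the next, and Dnmt3b was last at 1.56 ± 0.291. The E18 order began with Dnmt1 at 24.5 ± 2.29, clear of a run of overlapping neighbours from Dnmt3a at 11.5 ± 0.855 through Tet3 and Mbd1 to Uhrf1 at 8.88 ± 0.759. P7 was the only age led by Dnmt3a, at 19.9 ± 1.23 against 14.1 ± 0.764 for Dnmt1, with no overlap.

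In the young adult the reader Mbd2 led, at 11.7 ± 0.636 RPKM at P35 and 11.9 ± 0.518 at P70. Dnmt1 at 8.50 ± 0.452, Dnmt3a at 8.47 ± 0.553 and Mbd1 at 8.16 ± 0.245 overlapped in turn at P35, and at P70 Mbd1 at 8.25 ± 0.264, Dnmt1 at 8.25 ± 0.438 and Dnmt3a at 6.96 ± 0.616 did. Below them Tet3, Tet2, Tet1, Uhrf1 and Dnmt3b were each clear of the next at both ages, ending with Uhrf1 at 0.352 ± 0.109 and Dnmt3b at 0.162 ± 0.0532 at P70. Het cortex had the same leading gene at each of the 5 ages. The order below the leader depended on the length used. With lengths from the longest coding transcript the leaders of the 5 ages stayed, and so did the whole order at E14. At E18 they put Mbd1 above Tet3 (17.1 against 16.8 RPKM), Mbd2 above Uhrf1 (11.1 against 10.6) and Tet2 above Tet1 (5.81 against 3.67). At P7 Mbd1 stood above Tet3 (14.4 against 12.8) and Tet2 at 4.51 above Uhrf1 at 4.14 and Tet1 at 3.20. At P35 Dnmt3a at 14.6 and Mbd1 at 14.1 stood above Dnmt1 at 10.7, and at P70 Dnmt3a stood above Dnmt1 (11.95 against 10.4). The ratio of Dnmt3a to Dnmt1, per length, in WT was 0.344 ± 0.0195 (E14), 0.474 ± 0.0633 (E18), 1.41 ± 0.151 (P7), 0.996 ± 0.0445 (P35) and 0.844 ± 0.0796 (P70). That of Uhrf1 to Dnmt1 went from 0.833 ± 0.154 at E14 to 0.0428 ± 0.0133 at P70. At P7, Uhrf1 was 3.48 RPKM in WT with all 5 libraries and 2.11 without replicate 2, which put it below Tet1 and Tet2.

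**Figure D3:**
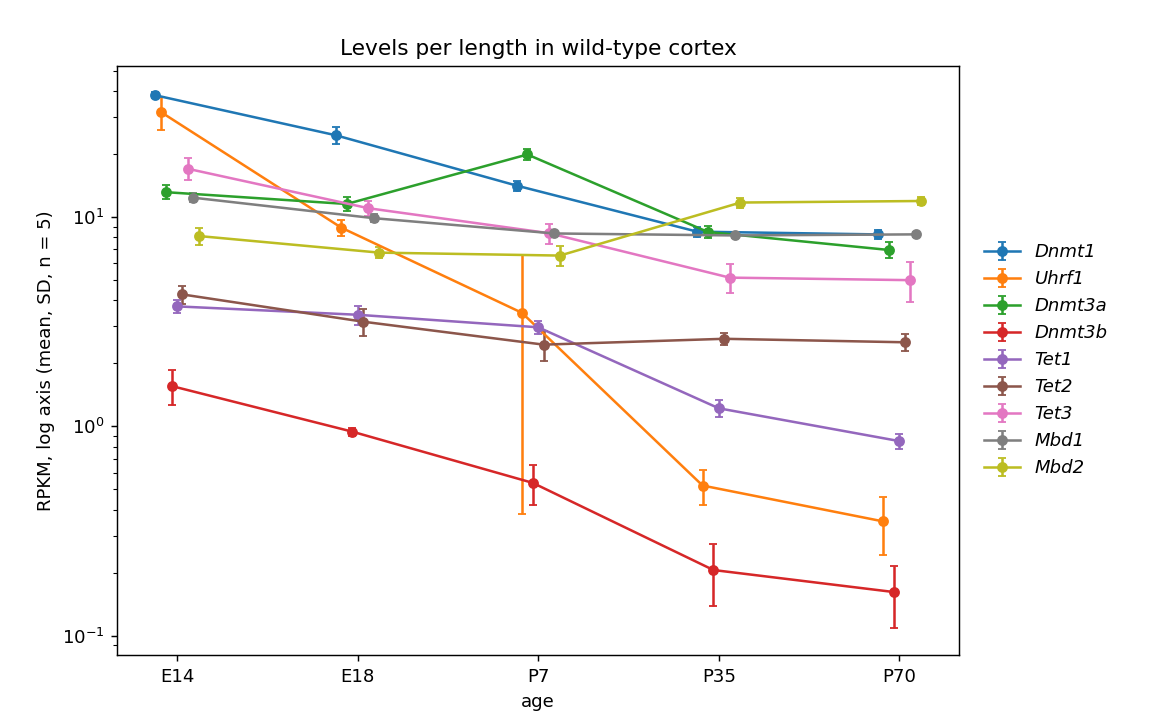
Mean RPKM of the 9 genes in WT at each of the 5 ages on a log axis, with the SD over 5 libraries as bars. Dnmt1 is highest at E14 and E18, Dnmt3a at P7, and Mbd2 at P35 and P70.

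As a description of likeness, the genes named here were among the 3 protein-coding genes with the highest Pearson correlation to each member over the 50 libraries, on log2 CPM with a prior count of 2. Dnmt1 ran with Trim28 (r = 0.9967) and Nono (0.9962), and Dnmt3b with N4bp2 (0.9781), Arhgef40 (0.9768) and Pimreg (0.9768). Dnmt3a, with its peak at P7, ran with Foxk2 (0.9542), Bdh1 (0.9472) and Plxna1 (0.9422), lower values than those of Dnmt1 and Dnmt3b. Tet1 ran with Marcksl1 (0.9891), Lcorl (0.9863) and Atxn7l3b (0.9855), Tet2 with Tut7 (0.9446) and Son (0.9345), and Tet3 with Pcgf3 (0.9806), Arl5b (0.9788) and Mlxip (0.9769). Of the readers, Mbd1 followed Brd1 (0.9798), Ppp4r3a (0.9784) and Zfp710 (0.9777), and Mbd2 followed Fgfr1op2 (0.972), Fars2 (0.968) and Nrn1 (0.9675). The names depend on the measure: with Spearman correlation, 0 of the 3 were shared for Dnmt1, Dnmt3b, Tet1, Tet3, Mbd1 and Mbd2 and 1 for Dnmt3a, Uhrf1 and Tet2, while a prior count of 0.5 kept all 3 except for Dnmt3b (2). Libraries of an age fall into clusters, so these values mostly describe the course over ages.

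The study asked what loss of a Setd1a copy does to the cortical transcriptome, and none of the 9 genes was called. With age as a covariate over all 50 libraries, 0 of 9 passed edgeR's test, against 4.43% of all tested genes, 111 higher and 612 lower in Het. Over all 16330 tested genes, 2360 had an unadjusted p under 0.05 in edgeR. Limma-voom and DESeq2 also called 0 of the 9, and Uhrf1 alone had an unadjusted p under 0.05 (0.0473, adjusted 0.338), with a Het minus WT difference of −0.25 ± 0.12. For the other 8 genes the difference lay between −0.03 (Dnmt3a) and 0.06 (Dnmt3b) on the log2 scale. In all 45 pairings of a gene and an age the ranges of the 5 WT and the 5 Het values overlapped, where 1.85% of such pairings over all tested genes did not.

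Age by age, again none of the 9 genes was called. At E14, E18, P35 and P70, edgeR called 0 of 9 members, where 0.129%, 0.110%, 0% and 0.233% of all genes were called, and limma-voom and DESeq2 called 0 as well. Mbd1 at E18 was the only unadjusted p under 0.05 among them, with a difference of 0.07 ± 0.03 (p 0.0459 in edgeR's fit across all genes, adjusted 0.425, the next smallest at that age being 0.195). Over all tested genes the unadjusted p was under 0.05 for 1895 at E14, 1857 at E18, 550 at P35 and 1070 at P70. The E14 background moved with single libraries: without WT replicate 5, a library with Xist counts, 747 genes were called at E14 in place of 21, without WT replicate 1 a single gene was, and the members called were 0 in both. Leaving out each library in turn gave 7 to 151 genes at E18, 0 to 5 at P35 and 7 to 92 at P70, always with 0 members.

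At P7 edgeR, limma-voom and DESeq2 each called 0 of 9 members, against 0.735% of all genes, which was 120 genes, 118 of them lower in Het, with 1447 genes at an unadjusted p under 0.05. Uhrf1, the only member with an unadjusted p under 0.05 in edgeR at that age, had the largest difference of the 9, −0.82 ± 0.25 (p 0.00216 by edgeR's test across all genes, adjusted 0.140). The difference came with WT replicate 2, the library with choroid plexus and hindbrain markers. Without it the Uhrf1 difference was −0.08 ± 0.15 (adjusted p 1), and 7 genes were called in all. Uhrf1 was called without WT replicate 1 (−0.99, adjusted p 0.0308) or WT replicate 5 (−0.96, 0.0396), fits in which replicate 2 remained, and its adjusted p was 0.0308 to 1 over all 59 alternatives. Over all ages Uhrf1 was −0.09 ± 0.07 without replicate 2 at P7.

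Whether the genotype difference changed with age was tested directly. The age by genotype interaction in edgeR called 0 of 9 members and 0% of all genes, with 1098 of 16330 at an unadjusted p under 0.05. Limma-voom and DESeq2 called 0 of the 9 there too. The lowest unadjusted values among the members were 0.129 for Mbd1 and 0.160 for Uhrf1 by the same test across all genes, so that 0 of the 9 were under 0.05. Dnmt3a, with its sharp P7 peak, gave 0.856.

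**Figure D4:**
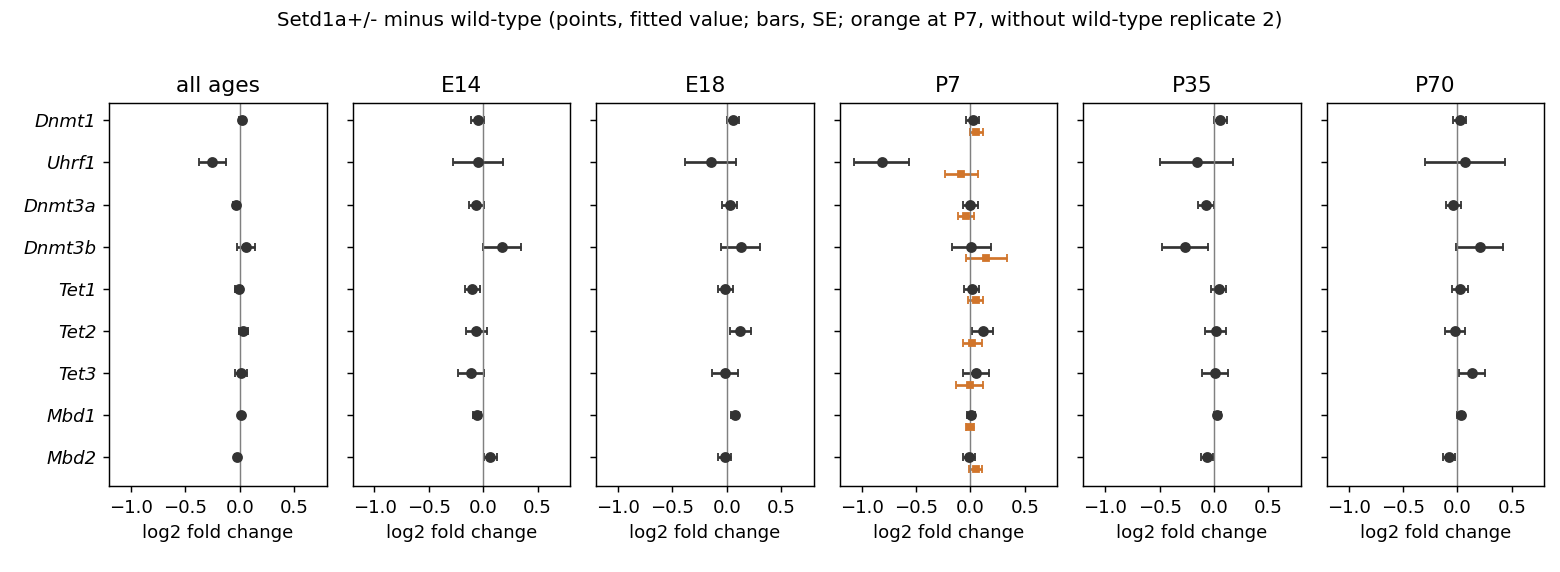
Het minus WT log2 fold change of the 9 genes over all ages and at each age, with SE as bars, from edgeR, and at P7 also without WT replicate 2 (orange). The member farthest from 0 is Uhrf1 at P7 (−0.82), which is −0.08 without WT replicate 2.

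Partners that guide the methyltransferases were read in the same steps, in which 65.9%, 67.3% and 67.0% of all genes were called in either direction in WT. Of 13 listed genes 12 were tested, and in WT 9, 11 and 9 of them fell in the first 3 steps with 0 rising (medians −0.37, −0.59 and −0.44, where those of all tested genes were −0.01, 0.00 and −0.01). In Het 8, 11 and 9 fell. Zfp57, a zinc finger protein that keeps imprinted regions methylated, stood at 306 ± 70.2 CPM at E14, 129 ± 6.44 at P7 and 16.1 ± 2.01 at P35, and fell by 3.00 ± 0.11 from P7 to P35 (adjusted p 2.55e-26 by edgeR). Its corepressor Trim28 fell by 0.58 ± 0.05, 0.91 ± 0.05 and 0.63 ± 0.05 in the 3 steps, and Setdb1, the histone methyltransferase that Trim28 recruits, fell by 0.60 ± 0.04 from P7 to P35. The remodeller Hells and its partner Cdca7, which open nucleosomes to Dnmt1, fell early: −1.69 ± 0.20 and −1.45 ± 0.15 from E14 to E18, reaching 2.81 ± 0.613 and 4.46 ± 1.03 CPM at P70. Uhrf2, the paralog of Uhrf1, fell by 0.78 ± 0.06 from E18 to P7. Dnmt3l, a cofactor of germ cells, was too low to test. 

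The list of oxidation and repair holds base excision repair genes that act after Tet, and also genes that supply, bind or resemble Tet enzymes. All 16 listed genes were tested, and in WT, where 65.9%, 67.3% and 67.0% of all genes were called, 3 rose and 11 fell from E14 to E18, 1 rose and 8 fell from E18 to P7, and 5 rose and 9 fell from P7 to P35 (medians −0.35, −0.31 and −0.14). The Het counts were 4 and 10, 1 and 12, and 5 and 7. Tdg, the glycosylase that excises oxidised methylcytosine, fell by 0.58 ± 0.05, 0.45 ± 0.05 and 0.70 ± 0.05, from 166 ± 14.2 CPM at E14 to 49.9 ± 2.46 at P35. Idh1, which makes the 2-oxoglutarate that Tet enzymes consume, fell late: it fell by 2.37 ± 0.07 from P7 to P35 and from 174 ± 17.3 to 33.5 ± 1.46 CPM (adjusted p 5.74e-31 by edgeR). Gadd45g fell by 1.78 ± 0.16 from E14 to E18, whereas Gadd45b, an activity-induced gene of the same family, rose by 1.64 ± 0.19 from P7 to P35. The CXXC genes related to Tet parted in that step: Cxxc4 fell by 0.98 ± 0.12 and Cxxc5 rose by 0.78 ± 0.09. Parp1 and Xrcc1 fell by 0.83 ± 0.05 and 0.69 ± 0.06 from E14 to E18. Parp1, Apex1 and Idh2 fell by 0.65 ± 0.05, 0.85 ± 0.07 and 1.19 ± 0.11 from E18 to P7. Ogt and Neil2 rose by 0.37 ± 0.06 and 0.47 ± 0.16 from P7 to P35. Smug1 fell by 0.25 ± 0.06 from P7 to P35. Without WT replicate 2 at P7, 5 rose and 6 fell from P7 to P35.

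Of 11 genes listed as other readers of CpG or their relatives, 2 rose and 6 fell from E14 to E18 in WT, 1 rose and 9 fell from E18 to P7, and 3 rose and 2 fell from P7 to P35 (medians −0.26, −0.34 and −0.07, with 65.9%, 67.3% and 67.0% of all genes called). Het gave 4 and 6, 2 and 9, and 3 and 3. Zbtb4, a zinc finger reader of methylated CpG, rose in every one of the 3 steps, by 0.66 ± 0.07, 0.98 ± 0.07 and 0.87 ± 0.07, from 27.4 ± 4.25 CPM at E14 to 173 ± 17.8 at P70. Among readers of unmethylated CpG, Kdm2b fell by 1.96 ± 0.07 and Fbxl19 fell by 0.94 ± 0.07 from P7 to P35. Mbd5 rose by 0.65 ± 0.06 in the same step as Mbd2. Cxxc1, the CpG-binding subunit of the Setd1a complex, fell by 0.30 ± 0.04 and 0.50 ± 0.05 in the first 2 steps. Zbtb38 rose by 0.43 ± 0.07 from E14 to E18. Mbd3, Mbd4 and Kdm2a fell by 0.48 ± 0.05, 0.75 ± 0.09 and 0.38 ± 0.06 from E14 to E18. Zbtb33 and Mbd3 fell by 0.80 ± 0.06 and 0.49 ± 0.05 from E18 to P7. Zbtb38 rose by 0.30 ± 0.07 from P7 to P35.

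Transcripts of NuRD, the complex that Mbd2 and Mbd3 join, moved in both directions. All 12 subunit genes were tested, and 1 rose and 9 fell from E14 to E18 in WT, 3 rose and 9 fell from E18 to P7, and 1 rose and 6 fell from P7 to P35 (medians −0.45, −0.49 and −0.17; 65.9%, 67.3% and 67.0% of all genes were called). In Het the counts were 2 and 9, 3 and 9, and 1 and 5. The ATPase Chd4 fell by 0.79 ± 0.07 and 0.69 ± 0.07, from 561 ± 32.0 CPM at E14 to 200.3 ± 33.2 at P7, while the neuronal ATPase Chd5 rose by 0.85 ± 0.14 and 0.52 ± 0.14, from 153 ± 53.7 to 395 ± 82.1 CPM. Hdac2 fell by 0.86 ± 0.05 and 0.77 ± 0.05 from E18 to P7 and from P7 to P35, Mta2 fell by 1.04 ± 0.06 from E18 to P7, and Mta3 rose by 0.60 ± 0.07 from P7 to P35. Hdac1, Gatad2a and Rbbp4 fell by 0.98 ± 0.07, 0.75 ± 0.07 and 0.59 ± 0.06 from E14 to E18. Rbbp7 rose by 0.14 ± 0.05 from E18 to P7. Rbbp4 and Gatad2a fell by 0.70 ± 0.06 and 0.68 ± 0.07 from E18 to P7. Hdac1 and Mta1 fell by 0.49 ± 0.07 and 0.31 ± 0.05 from P7 to P35. Without WT replicate 2 at P7, 3 rose and 8 fell from E18 to P7 and 2 rose and 6 fell from P7 to P35. With library totals in place of TMM scaling Rbbp7 was not called (0.09).

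Genes that supply and recycle the methyl donor S-adenosylmethionine were read against the 65.9%, 67.3% and 67.0% of all genes called in these steps. Of 12 tested, 1 rose and 9 fell from E14 to E18 in WT, 4 rose and 6 fell from E18 to P7, and 5 rose and 4 fell from P7 to P35 (medians −0.40, −0.07 and 0.09; in Het 1 and 7, 4 and 6, and 4 and 2). Without WT replicate 2 at P7 the last count was 5 and 1. Mat2b, the regulatory subunit of the enzyme that makes the donor, rose by 1.63 ± 0.05 from P7 to P35, from 40.3 ± 2.23 to 125 ± 5.83 CPM (adjusted p 7.22e-29 by edgeR). Ahcyl1 and Ahcyl2, relatives of the hydrolase Ahcy, rose by 0.77 ± 0.03 and 0.91 ± 0.06 in that step, while Ahcy itself fell by 0.65 ± 0.07 and 0.73 ± 0.07 in the first 2. The folate enzyme Shmt1 fell by 1.24 ± 0.14 and 0.95 ± 0.14 in the first 2 steps. Mthfd1 and Mtr fell by 0.48 ± 0.06 and 0.55 ± 0.07 from E14 to E18. Adk rose by 0.83 ± 0.10 from E18 to P7. Mtrr and Mat2a fell by 0.52 ± 0.10 and 0.23 ± 0.05 from E18 to P7. Adk rose by 0.29 ± 0.10 from P7 to P35. Shmt2 and Gnmt fell by 0.58 ± 0.10 and 0.56 ± 0.20 from P7 to P35. Gnmt lost its call without WT replicate 2 at P7 (−0.43, adjusted p 0.0628) or WT replicate 2 at P35 (0.0562), with 0.00368 to 0.0628 over all 58 alternatives. The Adk step from P7 to P35 lost its call without WT replicate 2 at P7 (0.21, adjusted p 0.0531) and with library totals in place of TMM scaling (0.20, adjusted p 0.0786), with 0.00113 to 0.0786 over all 59 alternatives.

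Germline genes whose promoters are methylated in other tissues were examined because the mark is known to keep them silent there. Of 18 listed, 9 had enough counts to test, and the other 9 stayed below 0.201 CPM on average in every group. In WT 3 rose and 0 fell from E14 to E18, 6 rose and 0 fell from E18 to P7, and 4 rose and 2 fell from P7 to P35 (medians 0.15, 0.92 and −0.07; 65.9%, 67.3% and 67.0% of all genes were called; in Het 5 and 0, 4 and 1, and 4 and 2). The summed level went from 9.92 ± 1.86 CPM at E14 to 26.9 ± 3.86 at P7 and 34.2 ± 2.85 at P35, of which Brdt was the largest part. Brdt rose by 1.05 ± 0.10 and 0.85 ± 0.09 in the first 2 steps, reaching 18.6 ± 1.75 CPM at P35. Dazl rose by 1.43 ± 0.26 from P7 to P35, to 4.23 ± 0.468 CPM, and Sycp3 rose by 1.10 ± 0.17 from E18 to P7 and 0.88 ± 0.16 from P7 to P35. Tdrd1 fell by 1.82 ± 0.29 from P7 to P35. Syce1 rose by 2.96 ± 0.74 from E18 to P7. Ddx4 rose by 1.08 ± 0.19 from P7 to P35. Rnf17 fell by 0.84 ± 0.30 from P7 to P35. Without WT replicate 2 at P7, 7 rose and 0 fell from E18 to P7. The Rnf17 step lost its call without WT replicate 1 at P35 (−0.66, adjusted p 0.0531, from 0.00279 over the alternatives). These are low levels, and methylation itself was not measured.

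Between P35 and P70 edgeR called 1.06% of all genes in WT and 2.98% in Het. In WT edgeR called 0 genes in each of the 7 lists, with an unadjusted p under 0.05 for 3 proliferation genes, 4 partners, 2 genes of oxidation and repair, 4 other readers, 2 NuRD subunits, 3 methyl donor genes and 1 of the germline genes. Over all tested genes, 1849 of 16330 had an unadjusted p under 0.05 in that WT step. Limma-voom also called 0, and DESeq2 called 2 partners and 1 NuRD subunit. In Het edgeR called 3 genes over the lists: Uhrf2 rose by 0.20 ± 0.06, Tdg fell by 0.18 ± 0.05 and Mat2b fell by 0.19 ± 0.05 (adjusted p 0.0479, 0.0492 and 0.0284). These calls were lost in 35, 46 and 8 of 59 alternatives. Over all 59 the log2 difference was 0.18 to 0.25, −0.17 to −0.19 and −0.17 to −0.21 for these genes, and the adjusted p reached 0.172, 0.1304 and 0.107. In the fit without WT replicate 2 at P7, 2 proliferation genes and 1 NuRD subunit were called lower in WT and 2 proliferation genes in Het, where 258 and 668 of all genes were called in place of 173 and 487.

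**Figure D5:**
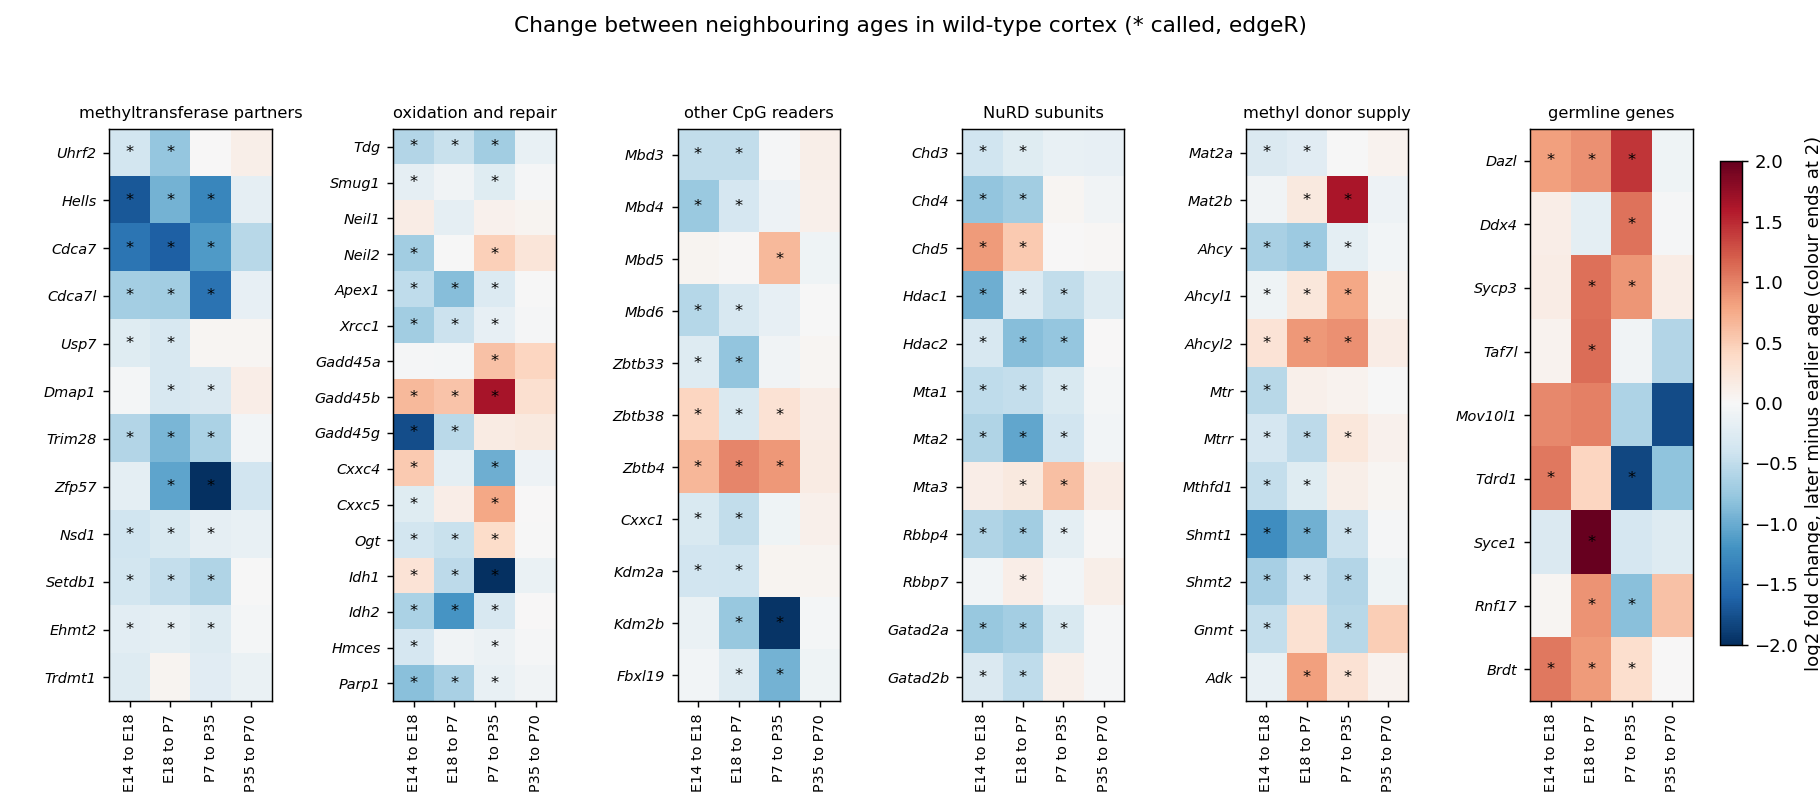
Log2 fold change of every tested gene of 6 lists in the 4 age steps in WT, as a heatmap with 1 row per gene, blue for a fall, red for a rise and an asterisk for a call by edgeR. Called methyltransferase partners are blue in the first 3 steps, the other lists hold called genes of both colours from P7 to P35, and the column from P35 to P70 has no asterisk.

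The lists were also read by genotype. With age as a covariate, where 4.43% of all genes were called, edgeR called 0 of 20 proliferation genes, 0 of 12 partners, 0 of 11 other readers, 0 of 12 NuRD subunits and 0 of 12 methyl donor genes, with 1, 0, 1, 0 and 2 at an unadjusted p under 0.05, and limma-voom and DESeq2 called 0 of them. Over all tested genes, 2360 of 16330 had an unadjusted p under 0.05 in edgeR. A single gene was called in each of the other 2 lists, 1 of 16 genes of oxidation and repair and 1 of 9 germline genes. The germline gene Rnf17 differed by 0.72 ± 0.13 (adjusted p 2.11e-04 by edgeR). It was already seen higher in Het in earlier results of these data, which were known when the lists were chosen. Its call is therefore not an independent result. Neil1, a repair glycosylase, differed by −0.15 ± 0.04 (adjusted p 0.0411), a call lost in 31 of 59 other settings, among them limma-voom and leaving out WT replicate 2 at P7 (−0.14, adjusted p 0.0538). Over all 59 alternatives the difference was −0.12 to −0.16 and the adjusted p 0.0269 to 0.0765.

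The cell makeup of the samples was read from markers over the same steps, in which 65.9%, 67.3% and 67.0% of all genes were called in WT. Of 6 neuron markers, 6 rose and 0 fell from E14 to E18, 4 and 0 from E18 to P7, and 5 and 1 from P7 to P35, and their sum went from 1849 ± 286 CPM at E14 to 6695 ± 336 at P70 in WT. Of 7 progenitor markers 0 rose and 7 fell from E14 to E18, 0 and 4 from E18 to P7, and 0 and 5 from P7 to P35, and their sum went from 1423 ± 197 CPM at E14 through 259 ± 81.1 at P7 to 130.7 ± 15.4 at P70, with Vim the most abundant up to P7. Both courses ran alongside the fall of Uhrf1 and Dnmt1, and their part in it was not tested. For 5 astrocyte markers the counts were 5 and 0, 4 and 0, 1 and 2 in the same order of steps, with sums of 185 ± 26.1 CPM at E14, 935 ± 239.99 at P7 and 977 ± 29.2 at P35. For 5 markers of the oligodendrocyte lineage they were 2 and 0, 4 and 1, 2 and 2, with 524 ± 289 CPM at P7 and 2521 ± 177 at P35, where Mbp led. For 5 microglia markers they were 2 and 0, 4 and 0, 5 and 0, with 95.3 ± 4.59 CPM at P7 and 220.4 ± 14.9 at P35. Neuron markers moved in that step too: in WT Snap25 rose from 486 ± 52.3 CPM at P7 to 2057 ± 58.5 at P35. Tubb3, the neuron marker that fell, went from 1526 ± 289 to 349 ± 9.44 CPM. These neuron changes and the higher oligodendrocyte and microglia sums at P35 stood beside the rise of Mbd2 and the falls of Dnmt3a and Tet1. The part of any of these cell types in the rise or the falls was not tested.

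Markers of neighbouring tissue were checked in the same way, against the same shares of all genes. The 2 cortex markers were present at every age, with WT sums from 433 ± 50.1 CPM at E14 to 182 ± 16.5 at P70, and had counts of 0 and 1, 0 and 1, 1 and 0. Those of striatum and ganglionic eminence, 5 genes led by Dlx1 at E14 and Ppp1r1b at P70, had 1 and 2, 0 and 3, 3 and 2, with 762 ± 142 CPM at E14 and 685 ± 234 at P70. Endothelial markers had 3 and 0, 0 and 0, 1 and 2 of 4, erythroid markers 0 and 2, 0 and 0, 0 and 0 of 3, and choroid plexus markers 1 and 0, 1 and 0, 0 and 1 of 3, while none of the 3 hindbrain markers had enough counts to test. From P35 to P70 in WT, edgeR, limma-voom and DESeq2 each called 1 marker of the oligodendrocyte lineage (Mog, −0.65 ± 0.17 by edgeR, a call lost in 38 of 59 alternatives, with −0.56 to −0.70 over all of them and adjusted p up to 0.209) and 0 of the other markers. In Het edgeR, limma-voom and DESeq2 each called all 3 erythroid markers (Hbb-bs −1.85 ± 0.37, Hba-a1 −1.81 ± 0.36 and Alas2 −1.96 ± 0.35 by edgeR) and 1 oligodendrocyte marker (Mog, −0.73 ± 0.17; 2 by edgeR without WT replicate 2 at P7), and DESeq2 called 1 choroid plexus marker as well. The erythroid markers in WT were −0.99 ± 0.36, −0.92 ± 0.35 and −1.02 ± 0.34, not called. By genotype with age as a covariate edgeR and limma-voom called 0 markers, 2 choroid plexus markers had an unadjusted p under 0.05 in edgeR, and DESeq2 called 1 choroid plexus marker. In that comparison 2360 of all 16330 tested genes had an unadjusted p under 0.05 in edgeR. At E14 and E18 edgeR and limma-voom called 0 markers by genotype, while DESeq2 called 2 choroid plexus markers at E18. Unadjusted p was under 0.05 in edgeR at E14 for Tmem119 (Het minus WT 0.81 ± 0.30), Csf1r (0.26 ± 0.13), Gja1 (0.81 ± 0.33) and Pdgfra (0.77 ± 0.24), and at E18 for Tmem119 (−0.69 ± 0.29), Rbfox3 (0.18 ± 0.07), Aqp4 (0.49 ± 0.22), Aldh1l1 (0.24 ± 0.10), Hes1 (−0.31 ± 0.14) and Nes (−0.24 ± 0.12). It was also under 0.05 for all 4 endothelial markers at E14, with Het minus WT differences of 0.62 to 1.09, and for 3 of them at E18, with −0.60 to −0.92. The summed endothelial level was 91.8, 487, 94.3, 169 and 93.6 CPM in Het and 92.9, 88.1, 102.5, 85.2 and 126 CPM in WT at E14, where Het replicate 2 stood highest. At E18 it was 130.9, 107, 134, 149 and 128 CPM in Het and 211, 133.03, 310.4, 248 and 131.2 CPM in WT. Ttr and Folr1 at E18 differed by −6.42 ± 1.88 and −6.91 ± 1.72 (unadjusted p 0.00137 and 2.31e-04 in edgeR's fit across all genes, adjusted 0.140 and 0.0833), with choroid plexus sums of 2.08, 0.897, 2.57, 2.77 and 1.36 CPM in Het and 2.33, 2.02, 227, 182 and 7.34 CPM in WT. At P7 edgeR called Mbp (−1.47 ± 0.32) and Ttr (−9.27 ± 2.32) lower in Het, and without WT replicate 2 the differences were −0.15 and 0.22, not called. Unadjusted p was also under 0.05 in edgeR at P7 for Pax6 (−1.13 ± 0.31), Folr1 (−2.99 ± 1.16) and Ppp1r1b (0.70 ± 0.33), at P70 for Emx1 (−0.32 ± 0.14), and at P35 for 0 of those reported, and none of these was called. Mbp lost its call also with limma-voom (−0.76, adjusted p 0.438), with the replicate block (−0.69, adjusted p 0.383) and without Het replicate 1, 3 or 5 at P7 (adjusted p 0.0550 to 0.0639). Ttr lost it in 25 of 59 alternatives: with limma-voom (−2.20, adjusted p 0.983), with the block (−8.45, adjusted p 0.327), with a minimum of 10 CPM (−9.29, adjusted p 0.0502) and with any single Het library at P7 left out (adjusted p 0.101 to 0.145). It lost it too without Het replicate 1, 3, 4 or 5 at E18, any single Het library or WT replicate 1, 3, 4 or 5 at P35, or WT replicate 1, 2 or 3 at P70 (adjusted p 0.0502 to 0.0531, differences of −9.27). With WT replicate 2 at P7 left out, 5 progenitor markers fell, 4 oligodendrocyte markers rose, 1 cortex marker fell and 2 choroid plexus markers fell from E18 to P7 in WT, and from P7 to P35 the falling counts were 1 for astrocytes, 1 for endothelium, 1 for cortex and 0 for choroid plexus, where 1 rose.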

How the data were processed

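Counts are as the authors deposited them: 1 raw fragment count per Ensembl gene and library. Per the file headers they come from featureCounts v1.4.6-p2 with Ensembl 102 on GRCm38, without strand and with a fragment over several genes counted for each. The submitters' processing notes name Trimmomatic, FastQC and STAR before that. Duplicates had been marked and no option to drop them was set. Names and types came from GENCODE vM21, which matched 55141 of 55487 identifiers, 21897 of them protein-coding. Counts were scaled by trimmed mean of M-values (TMM) and kept with edgeR's filterByExpr (minimum count 10). The main test was edgeR 4.0.16's quasi-likelihood test (R 4.3.3), with adjusted p after Benjamini and Hochberg over all 16330 genes, in a fit of 10 groups over all 50 libraries, or of genotype and age. CPM and RPKM used TMM-scaled totals and the exon length in the files. The test was checked on simulated counts. Alternatives were limma-voom (limma 3.58.1), DESeq2 1.42.0, other scalings and filters, a replicate block, RNA integrity as a covariate, and leaving out libraries. Showing values without WT replicate 2 at P7 was chosen after seeing the data.

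The 9 genes and the lists (proliferation, partners of methyltransferases, oxidation and repair, other readers of CpG, NuRD, methyl donor supply, germline genes and markers of cell types and tissues) were chosen with earlier results of these data known. Named are the members, Setd1a, the 3 genes most correlated with each member, and, of each list but proliferation and the markers, the called genes, at most 4 a direction in each WT step and by genotype, taken by adjusted p. Top2a, Pcna, Dnmt3l, the markers named, and the E18 to P7 values of Tdg and Chd4 lie outside that rule and were chosen after their values were seen. So do Gins2 and the Het values of Uhrf2, Tdg and Mat2b from P35 to P70, while Mki67 and the Mcm genes are named only as examples of their list. A few genes of the lists and of those most correlated are not reported here, and the counts, medians and sums of their lists leave them out. Protein and human data of the study were not analysed here.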

Additional observations from a re-analysis of the deposited data

Results flagged for a closer look

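WT replicate 2 at P7, the library with choroid plexus and hindbrain markers, lay far above the other 4 WT libraries for Uhrf1 (38.3 CPM, the nearest 11.1) and for Dnmt1 (114 CPM, the nearest 103). Tet3 had a low library in Het replicate 3 at E18 (163.98 CPM, the nearest 184) and a high library in WT replicate 1 at P35 (109 CPM, the nearest 84.5). Mbd1 had a low library in Het replicate 3 at P35 (53.8 CPM, the nearest 56.6). Each stood apart because its gap to the nearest library exceeded 0.71 of the range of its set of 5. Of 90 sets of 5 libraries, 5 held such a value, and chance gives about 1 in 20. The age by genotype interaction of edgeR called 0 of the 9 members.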

How the results depend on the processing

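Of 7950 values of the 9 members under other settings, 7914 kept their side of the threshold. Of the rest 30 lost a call and 6 gained one, and 0 values changed sign while called. These values include the p of the interaction, which has no direction. Differences that were not called could change sign: that of Uhrf1 by genotype at E14 ranged from −0.15 to 0.03. The count of members called was 0 in every genotype comparison and within 1.5 times the main count in the steps, with these exceptions. With RNA integrity as a covariate 1 in place of 2 was called from P35 to P70 in WT (Dnmt3a −0.27, adjusted p 0.0737 by edgeR). Leaving out each library in turn gave 0 to 1 for genotype at P7 and 1 to 2 from P35 to P70 in each genotype, with 7 to 9, 6 to 7 and 7 to 8 for E14 to E18 in WT and in Het and E18 to P7 in Het. Why was not tested. The choroid plexus marker Ttr changed sign without WT replicate 2 at P7, to 0.22 for genotype at P7 and 2.12 from P7 to P35 in WT, neither called, and leaving out each library gave −10.14 to 0.22 and −8.38 to 2.12.

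Dnmt3a from E14 to E18 in WT also lost its call with library totals (−0.13, adjusted p 0.0846) and with a minimum of 10 CPM (−0.14, adjusted p 0.0618), Tet1 from E18 to P7 in Het with that minimum (−0.13, adjusted p 0.0717), and Tet2 from E14 to E18 in Het with RNA integrity (−0.25, adjusted p 0.0504).

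Counts of all genes called by genotype moved by over 1.5 times. At E14 (21) they were 114 with DESeq2, 3 with library totals, 9 at 10 CPM and 795 without the 2 Xist libraries. At E18 (18) they were 10 with limma-voom, 111 with DESeq2, 7 at 10 CPM, 1 with RNA integrity and 77 without the Xist libraries. At P7 (120) they were 16 with limma-voom and 59 at 10 CPM. At P35 (0) they were 11 with DESeq2, 2 with its size factors, 1 at 10 CPM and 3 without the Xist libraries, at P70 (38) 78 with DESeq2, and for the interaction (0) 21 with DESeq2 and 12 without the Xist libraries. From P35 to P70 in WT (173) they were 277 with DESeq2 and 101 with RNA integrity. With each library left out they ranged from 1 to 747 at E14, 7 to 151 at E18, 7 to 212 at P7, 0 to 5 at P35, 7 to 92 at P70, 0 to 5 for the interaction, 46 to 277 from P35 to P70 in WT and up to 1030 in Het. With library totals 69 of 198 calls from P35 to P70 in WT were higher (87 of 173 with TMM), 1 of 3 at E14 (4 of 21) and 5 of 18 at E18 (7 of 18).

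With the replicate number as a block, genes called by genotype were 37 at E18, 20 at P7, 3 at P35 and 3 for the interaction, and the counts of members called were those without a block. The labels do not say whether the numbers pair the mice. Of 25 WT and Het pairs, 9 had a correlation over 0.1, and 7 WT libraries correlated best with their own number. The correlations ran from −0.20 to 0.46 and cannot decide it, since likeness of expression does not give the litter.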
